A study of Mus musculus with 8 samples.

Results

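The comparison described here set cells 1 h after release from a mitotic arrest, called early G1, against asynchronous cells of the same kind, which cycle freely and are spread over all phases. It used 4 of the 8 messenger RNA libraries of the study, 2 per state, and every gene of the table. Libraries were assigned by their labels. The cells were male mouse induced pluripotent stem cells, which the sample names call ESC, from 2 independent clones that served as biological replicates. The clones were kept on irradiated feeder cells in medium with serum at 15%, LIF at 1000 U/ml, a MEK inhibitor at 1 uM and a GSK3 inhibitor at 3 uM. For the early G1 state, cells were moved to gelatin a day ahead, held in nocodazole at 200 ng/ml for 6 h, shaken off, washed and plated on gelatin for 1 h. Nocodazole blocks microtubule growth and so stops cells in mitosis. The mitotic libraries (0 h) and the late G1 libraries (3 h), 2 of each, are given beside the results to place them. The late G1 cells went through the same handling with a longer time after washout. The mitotic cells, at 0 h, did not share the time on gelatin after release. Changes between mitotic and early G1 libraries therefore cannot be told apart from the replating. The labels do not say how the asynchronous cells were plated, nor which inhibitors the release medium held. Hence the stage of the cycle cannot be told apart from the drug, the replating and the loss of feeders. The question was which transcripts stood above the level of cycling cells 1 h after release and which had not yet reached it.

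A cell that leaves mitosis splits its chromosomes and cytoplasm, decondenses its chromatin and restarts transcription, which is largely silent while chromosomes are condensed. The anaphase-promoting complex destroys mitotic cyclins and many other mitotic proteins, which have to be made again for the next division. Pluripotent stem cells have a short G1 and are known for holding cyclin E activity high. In the medium used here, LIF drives STAT3, the MEK inhibitor blocks ERK signalling and the GSK3 inhibitor activates the Wnt pathway, and together they keep the naive state.

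Total counts ranged from 20410621 to 25615244 per library, and 19101 of 54838 genes had enough counts to be tested. Levels are counts per 1000000 (CPM) after scaling of the libraries, given for replicates 1 and 2 in that order, and differences are log2 fold changes of early G1 over asynchronous cells. The floor used, 3 counts, was worth 0.116 to 0.152 CPM depending on the library. A gene was called when its adjusted p from edgeR's quasi-likelihood test (Benjamini-Hochberg, two-sided, fitted to all 8 libraries) was under 0.05. The replicates were uneven: the biological coefficient of variation was 0.292 between the asynchronous libraries and 0.0506 between the early G1 libraries. Replicate 1 stood apart from replicate 2 in the same genes in the asynchronous and mitotic states (correlation of the replicate differences 0.636 over 10455 genes, a description in which genes are not independent). A pair does not show which of its 2 libraries is atypical. Counts below are also given without asynchronous replicate 1 where that changes them, which does not mark it as the outlier. That coefficient was 0.183 between the mitotic and 0.0417 between the late G1 libraries. With 2 libraries a state, the test estimates the spread from all 8 libraries together. The p-values therefore do not measure the spread of the asynchronous pair alone. Which clone gave which replicate number is not stated in the labels. A value given without either library of a state was the same when each of the 2 was left out in turn.

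The early G1 libraries carried the markers of pluripotent cells. The 7 markers (such as Pou5f1, Sox2 and Nanog) summed to 5515 and 5218 CPM in early G1 against 5055 and 6479 CPM in asynchronous cells, and the lowest of them stood at 287 CPM in early G1. The asynchronous libraries also carried fibroblast transcripts: 14 fibroblast markers summed to 1362 and 1339 CPM there and to 90.6 and 81.8 CPM in early G1, with none at 0. The 10 macrophage markers summed to 79.4 and 74.3 CPM in asynchronous cells and to 46.8 and 41.6 CPM in early G1, where 1 was at 0 in both libraries. In mitotic libraries they summed to 102 and 86.0 CPM. Of the 9 macrophage markers tested, 5 were called lower in early G1 and 0 higher, so the sums do not show the fall of single markers. In such bulk samples, fewer cells of a type and less RNA per cell cannot be told apart. Transcript length moved with the comparison too. Coding genes were cut into 5 equal groups by exonic length. In the shortest group (up to 2.356 kb), 12.2% were called higher and 38.7% lower, against 26.7% and 17.0% in the longest (from 7.424 kb). The median difference of the shortest group was -0.22 against asynchronous replicate 1 and -0.63 against replicate 2, and that of the longest 0.018 and 0.35. The part of feeder RNA and of transcript length in the results that follow was not tested.

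**Figure D1:**
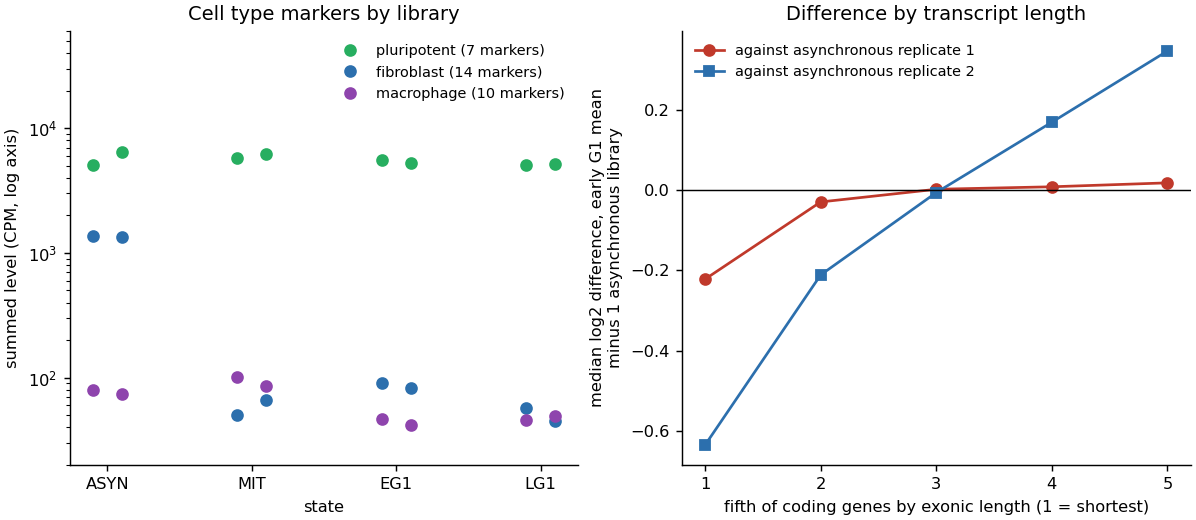
Left, summed level in CPM (log axis) of 7 pluripotent, 14 fibroblast and 10 macrophage markers in each of the 8 libraries, 1 point per library. Right, median log2 difference between the early G1 mean and each asynchronous library in 5 equal groups of coding genes by exonic length. Fibroblast markers summed to 1362 and 1339 CPM in the asynchronous libraries and to at most 90.6 CPM in the others, and the trend with length was steeper against asynchronous replicate 2 (-0.63 to 0.35) than against replicate 1 (-0.22 to 0.018).

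Early G1 cells differed from cycling cells in many of the 19101 genes tested: 4064 were called higher (21.3%) and 4720 lower (24.7%), and in each of them both early G1 libraries lay outside the range of the asynchronous pair. Of these, 1942 were higher by at least 2-fold (10.2%) and 2973 lower by at least 2-fold (15.6%). The median over all genes tested was -0.026. These shares are the background for every gene group below. The counts rest on both early G1 libraries: without replicate 1 of early G1, 2213 were called higher and 2580 lower, and without replicate 2, 1948 and 2238. Of the counts of at least 2-fold, the higher one was 2982 without asynchronous replicate 1, and the higher and lower ones were 1282 and 1888 without early G1 replicate 2. In the fit of the 4 libraries alone, 2391 were higher and 3235 lower.

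**Figure D2:**
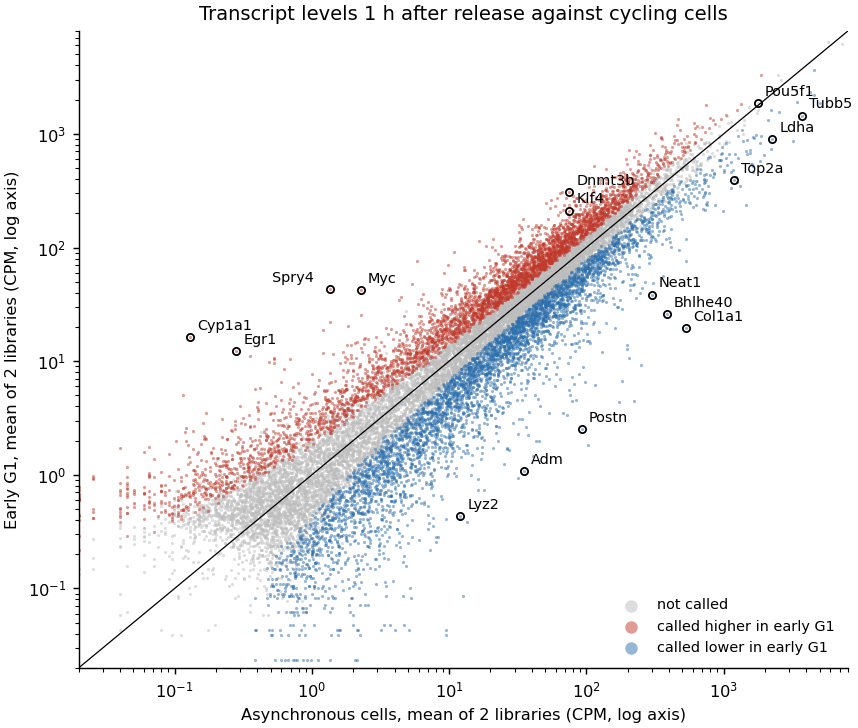
Mean level of each tested gene in asynchronous cells (horizontal, CPM) and in early G1 (vertical, CPM), both on log axes, each point 1 gene and each mean over 2 libraries. The 4064 genes called higher are red, the 4720 called lower blue, genes not called grey; genes with a mean under 0.02 CPM in either state are not drawn, and 16 genes described in the text are ringed.

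The mitotic level placed these genes. Early G1 was called above mitotic cells in 613 genes (3.21%) and below them in 272 (1.42%), and for most called genes, 3759 of the higher and 4476 of the lower ones, no change from the mitotic level was called. That does not show that they did not change, since with 2 libraries a state changes of 2-fold are often missed. Among genes called higher than in cycling cells, 141 had been at or below the asynchronous level in mitosis and passed it within 1 h, an overshoot (132 still called without asynchronous replicate 1). A further 142 had been above it in mitosis and were raised further (142), and 22 had been above it and were coming down (22). Among genes called lower, 97 were above mitotic cells and so on the way up (89), 78 had been at or above the asynchronous level in mitosis and undershot it (69), and 69 fell further from a lower level (69). The median overshoot gene went from -0.52 in mitotic cells to 1.00 in early G1, and stood at 1.12 at 3 h. The median gene on the way up went from -2.50 to -1.02 and stood at -1.31 at 3 h. These classes come from calls in comparisons that share the early G1 libraries, so their sizes are a description. Whether the mitotic level lay above or below the asynchronous one was read from group means and needed no call. Anxa6, for example, is in the undershoot class with no call between these 2 states (adjusted p = 0.825, edgeR).

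**Figure D3:**
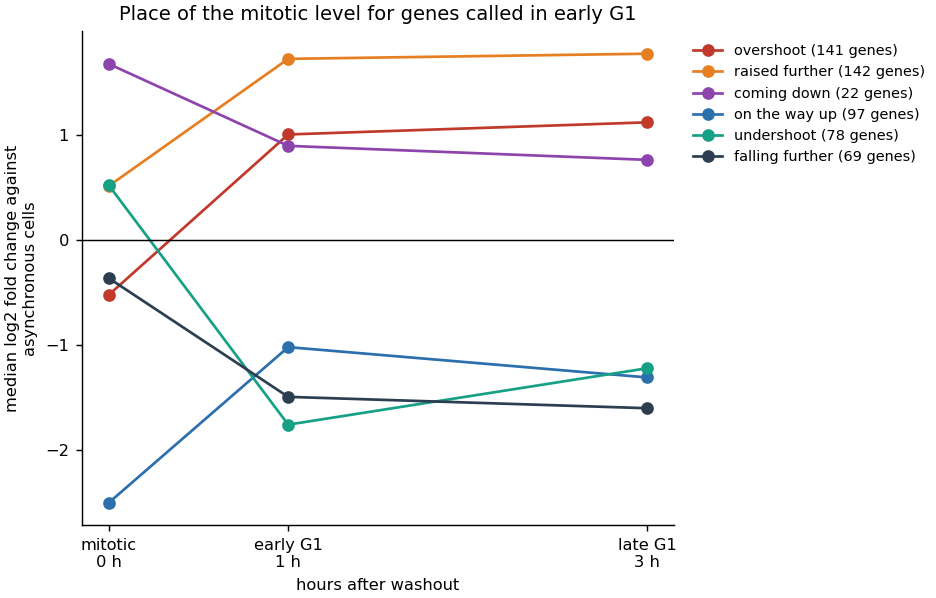
Median log2 fold change against asynchronous cells of each class of genes called in early G1, plotted at 0, 1 and 3 h after washout. The 141 overshoot genes crossed 0 between 0 and 1 h and the 97 genes on the way up stayed below it, and no class median crossed 0 between 1 and 3 h.

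The coding genes among the overshoot genes and those raised further shared features of gene structure that the classes did not use. Coding genes made up 58.9% and 78.9% of these classes, against 77.2% of all genes tested, and only they were measured here. Their annotated spans had medians of 17.3 kb and 15.0 kb, against 23.3 kb for all coding genes tested. Single-exon genes made up 10.8% and 9.82% of them, shares that rest on few genes, against 2.61% of all coding genes tested. The median of the largest number of exons in a transcript was 6 in both classes against 9. Short spans and few exons were not particular to these classes. Coding genes of the undershoot class had medians of 13.2 kb and 6 exons, and those of all genes called lower 17.2 kb and 8. Single-exon genes made up 2.99% and 1.98% of these. These are counts without a test.

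Transcripts of growth-factor signalling stood far above the level of cycling cells. ERK feedback and ETS target genes, which are switched on by ERK and in part switch it off again, were called higher in 14 of 18 (77.8%) and lower in 1 (2 without asynchronous replicate 1), with a median of 1.52. Egr1 (ENSMUSG00000038418, chromosome 18, 34859823 to 34864984, GRCm38), an immediate early gene for a transcription factor, was measured at 0.358 and 0.203 CPM in asynchronous, 1.1 and 0.82 CPM in mitotic and 12.9 and 11.5 CPM in early G1 libraries. That was a log2 difference of 5.38 from cycling cells (SE 0.30, adjusted p = 4.94e-05), and asynchronous cells gave only 9 and 4 reads. At 3 h it had come down to 8.48 and 8.3 CPM. Spry4 (chromosome 18, 38586247 to 38601415), a feedback inhibitor of the pathway, went from 0.876 and 1.83 CPM in asynchronous to 9.27 and 6.56 CPM in mitotic and 41.9 and 44.5 CPM in early G1 cells (log2 5.03, SE 0.32). Spry2, a relative of it, stood at 31.3 and 31.8 against 6.61 and 5.22 CPM and Dusp6, an ERK phosphatase gene, at 28.8 and 33.1 against 5.41 and 7.45 CPM. All 4 were called above mitotic cells as well, so their rise went on within the first hour. Phlda1 differed by 2.71 and the ETS factor gene Etv4 by 2.51, without a call against mitotic cells (adjusted p = 0.467 and 0.212). The member called lower was Dusp1, a phosphatase gene of the stress kinases, at 43 and 43.5 against 67.8 and 74.7 CPM.

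Immediate early genes, the first to be transcribed after a stimulus, did not move as 1 group: 13 of 28 were called higher (46.4%) and 7 lower, a share close to the background for the lower ones. Myc (chromosome 15, 61985391 to 61990374), the growth-promoting transcription factor, stood at 3.46 and 1.06 CPM in asynchronous and 43.5 and 41.3 CPM in early G1 libraries, with the mitotic ones at 21.5 and 12.9 CPM between them (log2 4.19, SE 0.45, adjusted p = 4.02e-04). Srf, whose protein drives many of these genes, was at 93 and 91.2 against 34.8 and 31.4 CPM, and Zfp36l1, a gene for a protein that destabilises messenger RNA, at 64.5 and 62.2 against 15.3 and 15.1 CPM. On the lower side, Ier3 stood at 10 and 9.23 against 73.5 and 73.2 CPM, Maff differed by -2.02 and Fosl2 by -1.91. Mcl1, the short-lived survival factor, was at 495 and 476 against 788 and 860.1 CPM. For these 4 lower genes the mitotic libraries were already low and no change was called in the first hour.

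Id genes, targets of BMP signals that restrain differentiation, were called higher with their pathway in 7 of 14, and 1 member, Hey1, was called lower (3 lower without asynchronous replicate 1, and 4 higher and 0 lower without either early G1 library, where Hey1 had adjusted p = 0.0679 and 0.0652). Id3 rose from 24.8 and 17.2 CPM in mitotic cells to 49.3 and 48.1 CPM, against 14.5 and 14.9 CPM in cycling cells, and was back at 32.7 and 35.4 CPM by 3 h. Id1 stood at 46.8 and 38.9 against 14.7 and 11.1 CPM and the ligand gene Bmp4 at 11.2 and 10.6 against 2.19 and 1.27 CPM.

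The central pluripotency factors were near the level of cycling cells while much of the wider network was above it. Of 32 core and naive pluripotency genes, 17 were called higher (53.1%) and 4 lower, with a median of 0.54. Pou5f1, which encodes Oct4, stood at 1472 and 2071 CPM in asynchronous and 1955 and 1761 CPM in early G1 libraries and was not called (log2 0.07, SE 0.16, adjusted p = 0.749). The early G1 pair lay between the asynchronous replicates, and the call depended on which of these was used: without replicate 2 the gene was called higher (log2 0.33, adjusted p = 0.0126), and without replicate 1 of both the asynchronous and mitotic states it was called lower (log2 -0.15, adjusted p = 0.0304). Sox2 was at 313 and 287 against 312 and 251 CPM and not called, except as higher in the latter fit (log2 0.26, adjusted p = 8.79e-04). Esrrb, at 412 and 403 against 264 and 364 CPM, was not called, but was called higher without asynchronous replicate 2 (adjusted p = 0.00501), without the filter on low counts (0.0202) and without replicate 1 of both the asynchronous and mitotic states (0.0197). Nanog was called, at 825 and 829.6 against 641 and 597 CPM (log2 0.42, adjusted p = 0.0147), and lost the call without early G1 replicate 1 or 2 (0.0873 and 0.0977) and in the fit of the 4 libraries alone (0.0758).

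Among the genes called in this network, Nr0b1 (chromosome X, 86191764 to 86195947), which encodes the nuclear receptor Dax1, stood at 119 and 109 CPM in early G1 and 15.5 and 17.7 CPM in asynchronous cells, with mitotic cells at 96.9 and 97.1 CPM (log2 2.78, SE 0.13, adjusted p = 3.24e-05). Klf4 was at 209 and 214 against 84.3 and 66.3 CPM (log2 1.49). Klf2, its relative in the naive network, went the other way: it stood at 289 and 312 CPM in asynchronous, 240.3 and 227 CPM in mitotic, 131 and 120.1 CPM in early G1 and 87.6 and 76 CPM in late G1 libraries (log2 -1.26, adjusted p = 2.89e-04). Its level was lower at each stage, with no overlap between states. The other members called lower were Dppa3 (11 and 12.2 against 33.9 and 29 CPM), the growth factor gene Fgf4 (207 and 211 against 334 and 414 CPM) and the Nodal co-receptor gene Tdgf1 (667 and 654 against 1086 and 1325 CPM). The list also holds Manba, a lysosomal mannosidase gene, which was higher by 2.09, and Mybl2, a cell cycle transcription factor gene, higher by 0.81.

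**Figure D4:**
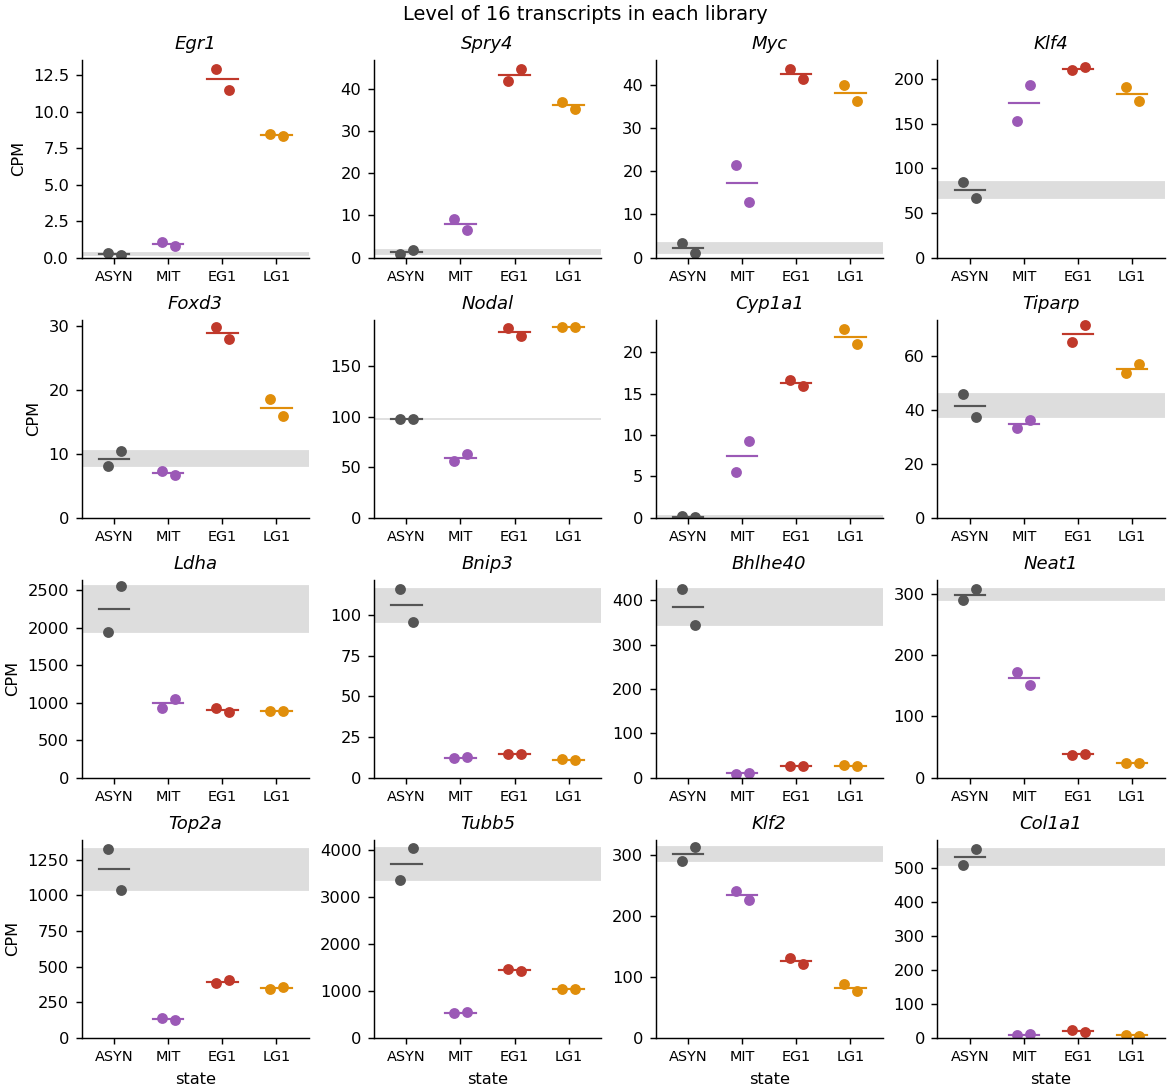
Level in CPM (linear axis from 0) of 16 transcripts in the 2 asynchronous (ASYN), mitotic (MIT), early G1 (EG1) and late G1 (LG1) libraries; each point is 1 library, each bar the mean of 2, and the grey band spans the asynchronous pair. Foxd3, Nodal and Tiparp passed the band from below between MIT and EG1, Top2a, Tubb5 and Bhlhe40 rose toward it without reaching it, and Klf2 and Neat1 moved down from it.

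Formative and primed genes, which are switched on when cells leave the naive state, included several above the level of cycling cells. Of 21 tested, 11 were called higher (52.4%) and 3 lower, with 7 and 4 higher without early G1 replicate 1 or 2 and 7 higher in the fit of the 4 libraries alone. The lower ones were 1 without early G1 replicate 1 and in that fit. Foxd3 (chromosome 4, 99656299 to 99658622), a forkhead gene, overshot: asynchronous libraries held 8.08 and 10.4 CPM and mitotic ones 7.29 and 6.78 CPM, and early G1 held 29.8 and 28 CPM (log2 1.65 over cycling cells, adjusted p = 4.16e-04). By 3 h it had moved back to 18.6 and 15.9 CPM. The DNA methyltransferase gene Dnmt3b was at 304 and 310.5 against 80.9 and 68.9 CPM, with mitotic cells already near it (322 and 241 CPM). Lef1, a Wnt effector gene on the same list, was lower, at 8.69 and 6.68 against 38.2 and 36.4 CPM.

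Within the Nodal pathway the ligand was high and its induced inhibitors low. Nodal (chromosome 10, 61417972 to 61425338), a TGF-beta family ligand gene, stood at 97.5 and 97.6 CPM in asynchronous, 56 and 62.8 CPM in mitotic, 188 and 179.9 CPM in early G1 and 189 and 189 CPM in late G1 libraries (log2 0.92, SE 0.11, adjusted p = 6.95e-04). The receptor gene Acvr2a was at 18.3 and 19.9 against 10.6 and 6.54 CPM and the signal transducer gene Smad2 at 56.5 and 55.5 against 32.1 and 19.7 CPM, both called. Lefty1 (chromosome 1, 180935022 to 180938400), a secreted inhibitor that Nodal signalling induces, was at 20.1 and 18.9 against 155 and 170.1 CPM (log2 -3.06, adjusted p = 1.43e-04). Lefty2 stood at 65.2 and 64.1 against 127 and 204 CPM and lost its call without asynchronous replicate 2 (adjusted p = 0.112) or without early G1 replicate 1 or 2 (0.0629 and 0.0706). In all, 5 of 16 members were called higher and 5 lower, and 3 and 3 without either early G1 library.

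Genes of the LIF pathway were called in both directions. The 2 receptor chains, Lifr and Il6st, were at 52.9 and 51.7 against 33.4 and 28.2 CPM and at 109 and 123 against 63.6 and 58.2 CPM, and the target gene Gbx2 at 15.3 and 13.4 against 2.03 and 2.08 CPM. Socs3, the feedback inhibitor that STAT3 induces, was lower, at 93.3 and 94.6 against 164 and 151 CPM, as was Gadd45g (log2 -2.62). Over the list, 6 of 14 were called higher and 3 lower. Of 17 Wnt targets, 8 were called higher (5 without early G1 replicate 2) and 4 lower (2 without either early G1 library). Notum, a secreted Wnt inhibitor gene, was at 32.9 and 28.8 CPM in early G1 on its way down from 52.4 and 50.2 CPM in mitosis, against 9.12 and 11.7 CPM in cycling cells. Tnfrsf19 differed by 1.62, and Rnf43, which encodes a ligase that removes Wnt receptors, by -3.73.

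A drug-metabolising enzyme headed the rises named by size. Cyp1a1, at chromosome 9, 57687928 to 57703824 (ENSMUSG00000032315), is switched on by the aryl hydrocarbon receptor, a sensor of planar aromatic compounds. It stood at 0.159 and 0.101 CPM in asynchronous, 5.56 and 9.28 CPM in mitotic, 16.7 and 15.9 CPM in early G1 and 22.8 and 21 CPM in late G1 libraries (log2 6.87, SE 0.39, adjusted p = 4.93e-05). The asynchronous values rest on 4 and 2 reads, so the size of the fold is uncertain. Of 10 genes of this receptor's pathway, 4 were called higher, 2 lower and 4 not (2 higher without early G1 replicate 2, and 0 lower without either early G1 library). Nqo1, a quinone reductase gene, was at 53.1 and 49.9 against 23.6 and 25.9 CPM. Tiparp, which encodes a repressor of the receptor, overshot from 33.5 and 36.4 CPM to 65.1 and 71.5 CPM, against 45.9 and 37.5 CPM in cycling cells (adjusted p = 0.00512, or 0.0567 without early G1 replicate 2). Cyp1b1, in contrast, was lower, at 5.29 and 6.41 against 12.4 and 10.8 CPM (adjusted p = 0.1005 and 0.0541 without early G1 replicate 1 or 2). The window from 250 bases before to 50 after the start of Cyp1a1 (RefSeq, GRCm38.p6, chr9:57697363-57697662, plus strand) is printed because it holds 1 match to GCGTG, the core of the response element of this receptor, in capitals. The letters were searched on both strands, and 32.5% of 27025 promoter windows of this length hold them, as do 49.4% of the 12489 windows of genes tested.
Cyp1a1: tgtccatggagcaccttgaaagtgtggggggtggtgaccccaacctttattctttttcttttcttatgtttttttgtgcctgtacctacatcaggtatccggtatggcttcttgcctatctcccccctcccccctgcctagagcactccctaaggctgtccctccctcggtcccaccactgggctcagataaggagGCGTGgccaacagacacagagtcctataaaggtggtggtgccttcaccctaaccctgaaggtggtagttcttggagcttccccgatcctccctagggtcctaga

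Glycolytic and hypoxia-responsive transcripts stayed below the level of cycling cells. Of 22 glycolysis gene IDs, 18 were called lower (81.8%) and 1 higher, with a median of -1.52. The one called higher, Pfkfb4, lost the call by DESeq2 (adjusted p = 0.0525) and in 10 of the other alternatives run. Ldha (chromosome 7, 46841475 to 46855627), the lactate dehydrogenase subunit of glycolytic tissue, stood at 1949 and 2551 CPM in asynchronous, 931 and 1055 CPM in mitotic and 934 and 872 CPM in early G1 libraries (log2 -1.32, SE 0.15, adjusted p = 4.97e-04). Gpi1, whose enzyme acts on glucose 6-phosphate, was at 356 and 342 against 1204 and 1412 CPM, and the lactate exporter gene Slc16a3 at 98.8 and 89.9 against 439 and 508 CPM. Eno2 and Aldoc differed by -3.38 and -2.67. For these 5 no change from the mitotic level was called. Pfkfb3, a regulator of the pathway, was on the way up, from 11.9 and 14.4 CPM in mitosis to 20.4 and 22.5 CPM, against 95.5 and 92.9 CPM.

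Of 36 hypoxia response genes, 25 were called lower (69.4%) and 4 higher, with a median of -1.82. Bnip3 (chromosome 7, 138890836 to 138909519), a mitophagy receptor gene, was at 116 and 96 CPM in asynchronous, 12.1 and 12.5 CPM in mitotic, 14.5 and 14.6 CPM in early G1 and 11.6 and 10.8 CPM in late G1 libraries (log2 -2.87, adjusted p = 3.87e-05). The peptide hormone gene Adm was at 1.28 and 0.889 against 39.8 and 29.9 CPM and Stc2, a secreted glycoprotein gene, at 5.34 and 4.83 against 77.8 and 74.4 CPM. Bhlhe40, a transcriptional repressor gene of this response and of the clock, stood at 425 and 344 CPM in asynchronous and 8.43 and 11.1 CPM in mitotic cells and was on the way up at 25.5 and 26.5 CPM (log2 -3.89 against cycling cells). Also on the way up were Ndrg1, from 28 and 33.6 CPM in mitosis to 49.3 and 47.9 CPM against 290.0 and 326 CPM, and Egln3, from 14.4 and 18.4 CPM to 37.4 and 35.7 CPM against 108 and 142 CPM. Egln3 encodes a hydroxylase that marks the oxygen-sensing factors for destruction. Pdk1, a kinase gene that keeps pyruvate from mitochondria, was at 65.5 and 65.4 against 121 and 112 CPM. At 3 h Ndrg1 was at 33.7 and 35.4 CPM and Pdk1 at 53.3 and 54 CPM, both further from cycling cells than at 1 h.

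The genes of the factors themselves went the other way. Hif1a, the oxygen-regulated subunit, stood at 156 and 157 against 55.6 and 37.4 CPM (log2 1.75, adjusted p = 3.32e-04) and Epas1, its relative, at 172 and 181 against 58.1 and 47.4 CPM (log2 1.74). Kdm3a, a histone demethylase gene on the list, was at 305 and 338 against 176 and 97 CPM. The fourth member called higher was Ak4 (344 and 350.2 against 270.1 and 225 CPM), which lost the call without early G1 replicate 1 or 2 (adjusted p = 0.0788 and 0.0979) and in the fit of the 4 libraries alone (0.0695). Fibroblast markers moved with these lists, at sums of 1362 and 1339 CPM in asynchronous and 90.6 and 81.8 CPM in early G1 libraries, and the hypoxia list shares Lox with the fibroblast markers.

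Promoter windows were searched for ACGTG, the core of the element that hypoxia-inducible factors bind, on both strands. It is contained in the E box CACGTG, so matches to an E box count here too. Windows were found for 21 of the 22 glycolysis gene IDs, and 10 of them (47.6%) held the core. That compares with 19.7% of all 27025 windows and 24.9% of the 12489 windows of genes tested. The 22 IDs stand for 21 symbols and windows were matched by symbol, so a window can count for more than 1 ID. The core was also in 40.4% of 47 windows of ribosome biogenesis genes, which were mostly called higher. Among all genes it was in 26.2% of the windows of those called higher and 24.1% of those called lower. A link between the core and the falls was not tested. For the hypoxia list only 28 of 36 had a window (77.8%), too small a part of the list for a share to be given. The windows of Ldha (RefSeq, GRCm38.p6, chr7:46845554-46845853, plus strand) and Bnip3 (chr7:138909457-138909756, minus strand) are printed with the matches in capitals, since both genes were far below the level of cycling cells. Ldha held 5 matches over both strands and Bnip3 2, on the 2 strands of a single E box. Those of Adm and Pdk1, also lower, held none, which says only that these letters are not in the window.
Ldha: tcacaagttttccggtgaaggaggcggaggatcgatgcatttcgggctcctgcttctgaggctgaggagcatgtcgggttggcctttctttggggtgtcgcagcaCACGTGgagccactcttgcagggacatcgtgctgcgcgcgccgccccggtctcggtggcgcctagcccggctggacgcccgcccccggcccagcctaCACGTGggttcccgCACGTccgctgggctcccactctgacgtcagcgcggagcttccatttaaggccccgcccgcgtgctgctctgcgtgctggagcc
Bnip3: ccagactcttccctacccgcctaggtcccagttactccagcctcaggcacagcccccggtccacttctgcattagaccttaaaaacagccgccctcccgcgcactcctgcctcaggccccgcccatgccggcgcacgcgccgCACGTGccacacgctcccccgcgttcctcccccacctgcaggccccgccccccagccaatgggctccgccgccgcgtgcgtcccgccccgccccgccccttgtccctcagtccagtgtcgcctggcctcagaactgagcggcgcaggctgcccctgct

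Transcripts for entry into S phase were more often above than below the level of the cycling population. Of 61 G1 to S genes, 32 were called higher (52.5%) and 6 lower, with a median of 0.43. The counts were 19 and 1 without either early G1 library, 20 and 1 in the fit of the 4 libraries alone, and 10 lower without asynchronous replicate 1. Ccne2 (chromosome 4, 11191351 to 11204779), a cyclin gene that drives cells into S phase, was measured at 11.8 and 7.15 CPM in asynchronous, 11.3 and 10.2 CPM in mitotic, 39.1 and 38.8 CPM in early G1 and 48.2 and 51.1 CPM in late G1 libraries (log2 2.03, SE 0.22, adjusted p = 4.43e-04). Ccne1 was at 295 and 287 against 133 and 188 CPM and Ccnd1, the D-type cyclin gene that growth factors induce, at 160.1 and 152 against 56.9 and 74.5 CPM. Cdc6, needed to load the replicative helicase, was raised further within the hour, from 81 and 70.8 to 125 and 132 CPM against 49.8 and 36.9 CPM in cycling cells. The repressor genes E2f7 and E2f8 did the same, E2f8 from 44.5 and 35.8 to 91.9 and 99.1 CPM against 27.6 and 15.8 CPM. Dtl, whose product helps destroy the licensing factor Cdt1, overshot from 89.4 and 87.7 to 178 and 183 CPM against 110.3 and 88.4 CPM. Cdkn1b, which encodes the cyclin kinase inhibitor p27, was lower, at 21.2 and 19.3 against 58.3 and 37.5 CPM. E2f1, Lig1 and Pold1 were called lower too (adjusted p = 0.00932, 0.0104 and 0.0134, edgeR). In the fit of the 4 libraries alone they differed by -0.62, -0.63 and -0.55 and were not called (adjusted p = 0.0532, 0.0658 and 0.0715).

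Mitotic transcripts were mixed, and several had not yet been rebuilt. Of 59 G2 and M phase genes, 10 were called higher (16.9%) and 12 lower (20.3%), shares near the background. Without asynchronous replicate 1 the higher ones were 22, and without early G1 replicate 1 or 2 the counts were 4 and 6 or 3 and 4. Top2a (chromosome 11, 98992943 to 99024189), the topoisomerase that untangles sister chromatids, stood at 1329 and 1037 CPM in asynchronous, 139.6 and 121 CPM in mitotic and 382 and 406 CPM in early G1 libraries (log2 -1.59, SE 0.15, adjusted p = 2.32e-04). It was on the way up, and stood at 341 and 357 CPM at 3 h. Aurkb, a kinase of the chromosomal passenger complex, was likewise at 55.9 and 58.6 CPM between 23.7 and 22.7 CPM in mitosis and 137 and 106 CPM in cycling cells. Nusap1, a spindle protein gene, was lower, at 78.4 and 80.7 against 156 and 149 CPM. Cdk1 was at 185 and 175 against 236 and 256 CPM, a call lost without early G1 replicate 1 or 2 (adjusted p = 0.0784 and 0.129) and in the fit of the 4 libraries alone (0.0714). On the higher side, Kif20a, a cytokinesis motor gene, was at 385 and 395 against 167 and 82.8 CPM and the checkpoint genes Bub1b and Mad2l1 at 352 and 356 against 236 and 226 CPM and 141 and 134 against 77.8 and 58.8 CPM. Plk1 (135 and 129 against 129.9 and 145 CPM) was not called. Ccnb1 (113 and 114 against 136 and 139.7 CPM, adjusted p = 0.065) was called lower only without either asynchronous library (0.0241 and 0.0421), or with replicate 1 of the asynchronous and mitotic states set apart by a term (0.0188) or left out (2.61e-04).

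Regulators of the anaphase-promoting complex differed from each other. Fbxo5, which encodes an inhibitor of the complex, stood near the asynchronous level, from a lower one in mitosis: it was at 89 and 67.8 CPM in asynchronous, 12.3 and 12.7 CPM in mitotic and 90.6 and 87.8 CPM in early G1 libraries (log2 0.19, adjusted p = 0.321). It was called higher without asynchronous replicate 1 (adjusted p = 0.00678) and without replicate 1 of both the asynchronous and mitotic states (1.16e-05). Fzr1, the activator subunit that works in G1, was on the way up, from 60.1 and 57.8 CPM to 99.4 and 96.9 CPM against 155 and 213 CPM. The subunit genes Cdc23 and Cdc27 were higher, Cdc27 at 116 and 125 against 68.1 and 52 CPM, while Anapc13 was lower, at 25.8 and 23.4 against 43.2 and 69.4 CPM. Over 20 genes of the complex and its regulators, 5 were called higher and 4 lower. The counts were 3 and 3 without early G1 replicate 1 and in the fit of the 4 libraries alone, 2 and 2 without early G1 replicate 2, and 7 lower without asynchronous replicate 1.

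Tubulin transcripts were below the level of cycling cells in 11 of 17 genes (64.7%) and above it in 1, with a median of -0.60. Without early G1 replicate 1 or 2 the lower ones were 7 and 4 and none was higher, and in the fit of the 4 libraries alone 6. Cells are known to lower tubulin messages when free tubulin rises. Tubb5 (chromosome 17, 35833921 to 35838306), a beta-tubulin gene, stood at 3359 and 4044 CPM in asynchronous, 535 and 539 CPM in mitotic, 1476 and 1424 CPM in early G1 and 1048 and 1047 CPM in late G1 libraries (log2 -1.35, SE 0.12, adjusted p = 1.97e-04). Its level was lowest in the mitotic libraries and was called above that 1 h after washout. Of the 11 tubulin genes called lower, 2 were on the way up. The part of the drug or of free tubulin in these levels was not tested. Tubg2, a gamma-tubulin gene, was at 0.945 and 1.12 against 7.33 and 5.83 CPM with no call against mitotic cells.

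The machinery that makes ribosomes was high while transcripts of the ribosomal proteins were low. Of 50 genes of ribosome biogenesis and RNA polymerase I, 34 were called higher (68.0%) and 3 lower, with a median of 0.64. Ddx21 (chromosome 10, 62580251 to 62602281), a nucleolar helicase gene, was at 709.9 and 725 CPM in early G1, 640.2 and 584 CPM in mitotic and 239 and 168 CPM in asynchronous cells (log2 1.82, adjusted p = 2.24e-04). Polr1b, a subunit gene of the polymerase, was at 198 and 199 against 81.7 and 93.1 CPM, and the processing factor gene Imp4 at 186 and 185 against 76 and 72.2 CPM. Taf1d, an initiation factor gene, was raised further within the hour, from 157 and 160.2 to 238 and 265 CPM against 114 and 108 CPM. The 3 called lower were Noc2l, Npm1 and Pes1, the largest change being -0.45, and without any 1 of the mitotic or G1 libraries at most 1 of them was called. Without asynchronous replicate 1 the lower ones were 6. Windows for 47 of the 50 were found, and 10 of these (21.3%) held the E box CACGTG, the letters that Myc binds, against 7.24% of all 27025 windows and 9.88% of those of genes tested.

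Of 85 cytosolic ribosomal protein genes, 54 were called lower (63.5%) and 3 higher, with a median of -0.85, or of -0.47 without asynchronous replicate 2. The lower ones were 35 in the fit of the 4 libraries alone and 35 and 29 without early G1 replicate 1 or 2. The higher ones were 6 without asynchronous replicate 2 and 1 without early G1 replicate 1. Rpl12 stood at 444 and 532 CPM in asynchronous, 214 and 200.4 CPM in mitotic and 203 and 190.3 CPM in early G1 libraries (log2 -1.31). Rps7 was an exception, raised from 31.9 and 44.9 CPM in mitosis to 87.4 and 75.5 CPM against 22.9 and 25.1 CPM, and back at 49.6 and 40.2 CPM at 3 h. Ribosomal protein genes have many processed copies that can share reads, so single values are uncertain. Of 55 nuclear-encoded respiratory chain genes, 26 were called lower (47.3%) and 1 higher, with a median of -0.57, or of -0.86 and -0.25 without asynchronous replicate 1 or 2. The number called lower was 43 without asynchronous replicate 1, 10 and 5 without early G1 replicate 1 or 2, and 10 in the fit of the 4 libraries alone. Atp5h, a subunit gene of ATP synthase, was at 20.5 and 22.7 against 36.5 and 49.1 CPM and Ndufa6, of complex I, at 76.2 and 68.8 against 124 and 161 CPM. Transcripts of these 2 families are typically short, and in the shortest of the 5 length groups 38.7% of coding genes were called lower. The 2 asynchronous libraries differed with length as well, by a median of -0.37 in the shortest group and 0.34 in the longest, replicate 1 minus replicate 2. The part of length in these falls was not tested.

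Genes of the integrated stress response were more often called lower than higher. Of 36 genes of this response, the set that ATF4 switches on when translation is curbed, 24 were called lower (66.7%) and 4 higher, with a median of -0.64. Without either early G1 library the lower ones were 11. Ddit3 (chromosome 10, 127290774 to 127296288), which encodes the pro-death factor Chop, fell further within the hour, from 15 and 16.6 CPM in mitosis to 9.16 and 8.69 CPM, against 84.5 and 104 CPM in cycling cells (log2 -3.40, adjusted p = 3.24e-05). Ddit4, an inhibitor gene of mTOR signalling shared with the hypoxia list, was at 82.1 and 69.9 against 519 and 546 CPM and Chac1, a glutathione-degrading enzyme gene, at 1.61 and 1.66 against 11 and 10.6 CPM. The 4 called higher include the arginine transporter genes Slc7a3 (313 and 307 against 57.3 and 75.6 CPM) and Slc7a1 (log2 1.04) and the cystathionase gene Cth (231 and 229.5 against 71.4 and 47.4 CPM). Heat shock and chaperone genes were called higher in 12 of 28 and lower in 2. The higher ones were 19 without asynchronous replicate 2, 6 without either early G1 library and 7 in the fit of the 4 libraries alone, and the lower ones 6 without asynchronous replicate 1 and 0 without either early G1 library. Hsph1 was at 491 and 496 against 114 and 165 CPM and Hspa5, the chaperone of the endoplasmic reticulum, at 1353 and 1358 against 442 and 495 CPM.

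Targets of p53 were called higher in 13 of 30 (43.3%) and lower in 4, with a median of 0.24. The lower ones were 7 without either asynchronous library and 2 without early G1 replicate 2. Plk2, a kinase gene, rose from 95.7 and 82.5 CPM in mitosis to 176 and 179 CPM in early G1 and 265 and 268 CPM at 3 h, against 39.9 and 29.3 CPM in cycling cells (log2 2.36, SE 0.17, adjusted p = 1.03e-04). Mdm2, the ligase that destroys p53, stood at 343 and 351 against 174 and 133 CPM, and Btg2, an antiproliferative gene, at 131 and 131 against 71.7 and 70.8 CPM. Pidd1 was raised further from 58.2 and 62.3 to 85.4 and 91.6 CPM against 44.4 and 45.1 CPM. Fas, a death receptor gene, was lower, at 0.945 and 0.618 against 2.55 and 2.74 CPM. The nocodazole arrest, shared by the mitotic and both G1 states, and the stage of the cycle cannot be told apart here.

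Many chromatin regulators were above the level of cycling cells. Of 23 genes of Polycomb and DNA methylation, 15 were called higher (65.2%) and 4 lower, with a median of 0.68. The lower ones were 2 without either early G1 or either late G1 library and in the fit of the 4 libraries alone. Kdm2b, which brings a Polycomb complex to unmethylated CpG islands, was at 265 and 279 against 74.8 and 48 CPM, and Eed, a core subunit gene, at 286 and 292 against 136 and 123 CPM. Ezh1, the catalytic subunit of resting cells, was lower, at 33.7 and 33.6 against 93.9 and 63 CPM. Of 26 histone acetylation genes, 11 were called higher and 3 lower (7 higher without either early G1 library and in the fit of the 4 libraries alone, and 5 lower without asynchronous replicate 1). Brd2, a reader of acetylated histones, was raised further from 331 and 300.1 to 466 and 477 CPM against 264 and 212 CPM, and Kat2b, an acetyltransferase gene, was at 86.8 and 87.8 against 42.6 and 32.3 CPM. The deacetylase gene Hdac7 was lower, at 8.64 and 6.37 against 23.1 and 29.5 CPM. Of 26 cohesin, condensin and CTCF genes, 9 were called higher and 3 lower. The higher ones were 16 without asynchronous replicate 1, 5 and 3 without early G1 replicate 1 or 2, and 4 in the fit of the 4 libraries alone, and the lower ones at most 1 without a G1 library. Rad21, the cohesin subunit that is cut at anaphase, was at 477 and 499 against 269.6 and 144 CPM.

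Splicing factor genes were more often called higher than lower. Of 28 splicing factor and CLK kinase genes, 16 were called higher (57.1%) and 6 lower, with a median of 0.47. The higher ones were 8 without either early G1 library and 10 in the fit of the 4 libraries alone, and the lower ones 2 or 3 without any 1 of the mitotic or G1 libraries or asynchronous replicate 1. The SR protein genes Srsf2 and Srsf6 were at 648 and 597 against 251 and 194 CPM and at 548 and 546 against 239.7 and 232 CPM, and Srsf5 was raised further from 227 and 250.2 to 343 and 354 CPM against 197 and 177 CPM. The kinase gene Clk2 was lower, at 54.1 and 53.7 against 92.9 and 88.1 CPM. Of 15 small RNA host genes and nuclear RNAs, 9 were called lower and 1, Snhg3, higher, a call kept in none of the fits without asynchronous replicate 2 or a mitotic or G1 library. Neat1 (chromosome 19, 5824708 to 5845478), the long noncoding RNA that builds paraspeckles, fell from 289 and 308 CPM in asynchronous and 173 and 151 CPM in mitotic cells to 37.8 and 39.3 CPM in early G1 and 24.7 and 24.4 CPM in late G1 (log2 -2.95, SE 0.13, adjusted p = 3.24e-05). Of the 9 called lower, 4 were on the way up: among them Snhg6, a host gene of a small nucleolar RNA, went from 18.4 and 21.3 to 39.7 and 40.7 CPM against 83.3 and 83.4 CPM, and Zfas1 from 44.7 and 56.8 to 143 and 145 CPM against 242 and 303 CPM. Mir17hg, host of a microRNA cluster that promotes proliferation, overshot from 6.83 and 8.46 to 42 and 42 CPM against 19.9 and 15.6 CPM (log2 1.24). With poly(A) selection, transcripts that lack a tail are measured only in part.

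Other overshoot genes named by size were Mars2, the mitochondrial methionyl-tRNA synthetase gene, which went from 11.3 and 11.2 CPM in mitosis to 34 and 34.8 CPM against 13.1 and 11.1 CPM (adjusted p = 2.59e-04), and the zinc finger gene Zfp715, which went from 5.48 and 4.36 to 21.3 and 22.4 CPM against 10.2 and 7.2 CPM. Lhx6 and Mfsd4a did the same at lower levels, reaching 6.75 and 7.69 and 5.67 and 6.76 CPM. Mybl1 reached 39.4 and 40.1 CPM against 23.1 and 10.6 CPM (adjusted p = 0.0114, or 0.0501 and 0.058 without early G1 replicate 1 or 2), and Rtl10 9.3 and 10.9 CPM against 4.3 and 0.913 CPM (adjusted p = 0.0164, or 0.0519 and 0.0799). Their asynchronous replicates lay more than 2-fold apart. Among genes coming down, Ano1, a chloride channel gene, stood at 0.358 and 0.456 CPM in asynchronous, 8.43 and 9.45 CPM in mitotic and 4.49 and 4.21 CPM in early G1 cells. Dio3, Rtl1 and Nespas, which lie in imprinted regions, were in that class too. Dio3 was at 10.5 and 10.1 CPM in early G1, 19.2 and 19.5 CPM in mitotic and 3.3 and 4.66 CPM in asynchronous cells and Nespas at 5.81 and 5.64, 18.1 and 14.9 and 2.67 and 3.09 CPM. Rtl1, at 9.59 and 9.93 against 4.38 and 5.37 CPM, lost its call without early G1 replicate 2 (adjusted p = 0.0562). Nespas and Rtl1 have antisense partners, and the strand setting of the counting is not given in the sources used here.

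Some transcripts of 2-cell-like cells and of macrophages were below the level of cycling cells, and part of these had been above it in mitosis. In the 2 lists, 11 of 20 and 8 of 18 members were not called. Summed levels of the 2-cell-like list were 42.9 and 41.2 CPM in early G1 against 39.7 and 42.7 CPM in asynchronous cells. Those of the macrophage list were 269 and 261 against 253 and 329 CPM, so the sums do not show the fall of single members. Genes of the 2-cell-like state, which a small share of such cultures enters, were called lower in 8 of 20 (40.0%) and higher in 1, with a median of -1.43, or of -0.45 without asynchronous replicate 1. Zscan4c, a telomere regulator gene of that state, was at 3.3 and 2.74 CPM in asynchronous, 4.17 and 3.45 CPM in mitotic and 0.661 and 0.695 CPM in early G1 libraries (log2 -2.15, adjusted p = 9.45e-04). Tcstv1, lower already in mitosis, was at 0.331 and 0.309 against 2.71 and 3.4 CPM. Members have near-identical copies, so single values are uncertain. The 1 called higher, Pramel6, lost the call without asynchronous replicate 1 or 2 (adjusted p = 0.217 and 0.106) and without early G1 replicate 1 or 2 (0.0737 and 0.0979). Among macrophage markers, Lyz2, the lysozyme of these cells, stood at 9.44 and 14.7 CPM in asynchronous, 28.7 and 30.8 CPM in mitotic and 0.756 and 0.116 CPM in early G1 libraries, and was at 0 in late G1. C1qb, a complement gene, was at 2.99 and 4.41, 7.84 and 7.6 and 0.0945 and 0 CPM in that order, within the floor in early G1. In all, 10 of 18 macrophage markers were called lower (6 without early G1 replicate 2) and 0 higher. Also in the undershoot class, the smooth muscle light chain gene Myl9 was at 15.5 and 13.4 against 25.6 and 41.4 CPM (adjusted p = 0.00851, or 0.0723 without early G1 replicate 2) and Anxa6, a membrane-binding annexin gene, at 108 and 109.5 against 220.1 and 208 CPM.

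Connective tissue genes, which feeder fibroblasts express, were far below the level of cycling cells. Of 29 fibroblast markers tested, 24 were called lower (82.8%) and 0 higher, with a median of -3.00. Col3a1 (chromosome 1, 45311538 to 45349706), a chain of type III collagen, was at 2.41 and 1.27 against 114 and 90.9 CPM (log2 -5.81, SE 0.32, adjusted p = 4.93e-05), and Bgn, a matrix proteoglycan gene, at 4.72 and 3.94 against 151 and 196 CPM. Of the 97 genes on the way up, 6 were on this list, Postn and Tnc among them: Tnc, a matrix glycoprotein gene, stood at 0.674 and 0.907 CPM in mitotic, 8.03 and 7.42 CPM in early G1 and 2.14 and 1.41 CPM in late G1 libraries, against 94.9 and 80.4 CPM. Outside this list, the largest falls among genes at an average log2 CPM of at least 2 included genes that fibroblasts and other stromal cells express, such as Cd248 (1.04 and 0.85 against 23.7 and 39.9 CPM), Ccdc80 (1.18 and 1.74 against 40.1 and 41.4 CPM), Igfbp4 (8.12 and 5.18 against 179 and 185 CPM) and Serpinf1 (2.31 and 1.66 against 39.7 and 51.1 CPM). Ndufa4l2, a hypoxia-induced gene of the respiratory chain, fell with them, to 10.7 and 7.92 from 209 and 291 CPM, and Nupr1, a stress gene, to 11.3 and 9.89 from 159 and 249 CPM.

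Actin, SRF and YAP target genes were called in both directions. Of 28, 9 were called higher and 12 lower (7 lower without early G1 replicate 2). The lower ones included contractile genes of smooth muscle and myofibroblasts: Acta2 was at 14.4 and 15.9 against 75.5 and 126 CPM, Tpm2 at 15.3 and 14.5 against 77 and 130.2 CPM and Cnn1 at 4.01 and 2.43 against 15.8 and 20.4 CPM. The higher ones included Actn4, an actin crosslinker gene, at 1010.3 and 1045 against 357 and 269.9 CPM, and Lats2, a kinase gene of the Hippo pathway, at 11.6 and 11 against 3.07 and 3.3 CPM. Fibroblast markers fell with the contractile genes, and their part was not tested.

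Other groups had members on both sides, several at shares near the background of 21.3% higher and 24.7% lower. Clock genes were at 26.3% and 36.8% and cholesterol synthesis genes at 23.1% and 30.8%. Germ layer and extraembryonic genes were at 23.1% and 26.9%, and replication-dependent histones at 10.7% and 28.6%. Of 19 clock genes, 5 were called higher (3 and 2 without early G1 replicate 1 or 2) and 7 lower. The activator gene Arntl was at 29 and 27.9 against 16.6 and 12.3 CPM and the repressor gene Cry1, raised further from 34.1 and 40.6 CPM, at 60.3 and 56.5 against 35.2 and 29.3 CPM, while the output gene Dbp was at 2.27 and 2.74 against 8.36 and 7.55 CPM. Of 26 cholesterol synthesis genes, 6 were called higher and 8 lower, counts that moved to 11 higher without asynchronous replicate 1 and to 3 and 2 or 3 and 0 without early G1 replicate 1 or 2. Interferon-stimulated genes were called lower in 7 of 17, H2-K1 among them at 17.7 and 16.9 against 63.8 and 65.8 CPM. Of 26 germ layer and extraembryonic genes, 6 were called higher and 7 lower, with 10 higher without asynchronous replicate 2, 3 higher without early G1 replicate 2 and 4 lower without either early G1 library. The 78 mitochondrial ribosomal protein genes were called higher in 7 and lower in 24 (48 without asynchronous replicate 1, 14 without replicate 2, 5 without either early G1 library, and 9 and 12 without late G1 replicate 1 or 2; higher in 12 without asynchronous replicate 2). BCL2 family genes were called lower in 5 of 14 and replication-dependent histones in 8 of 28, counts of 1 each without early G1 replicate 2. Kdr, a receptor gene of mesoderm and endothelium, was at 7.7 and 9.46 against 0.637 and 0.608 CPM (log2 3.77), and Krt18, a keratin gene of trophectoderm, at 23.4 and 18.5 against 77 and 77.1 CPM.

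**Figure D5:**
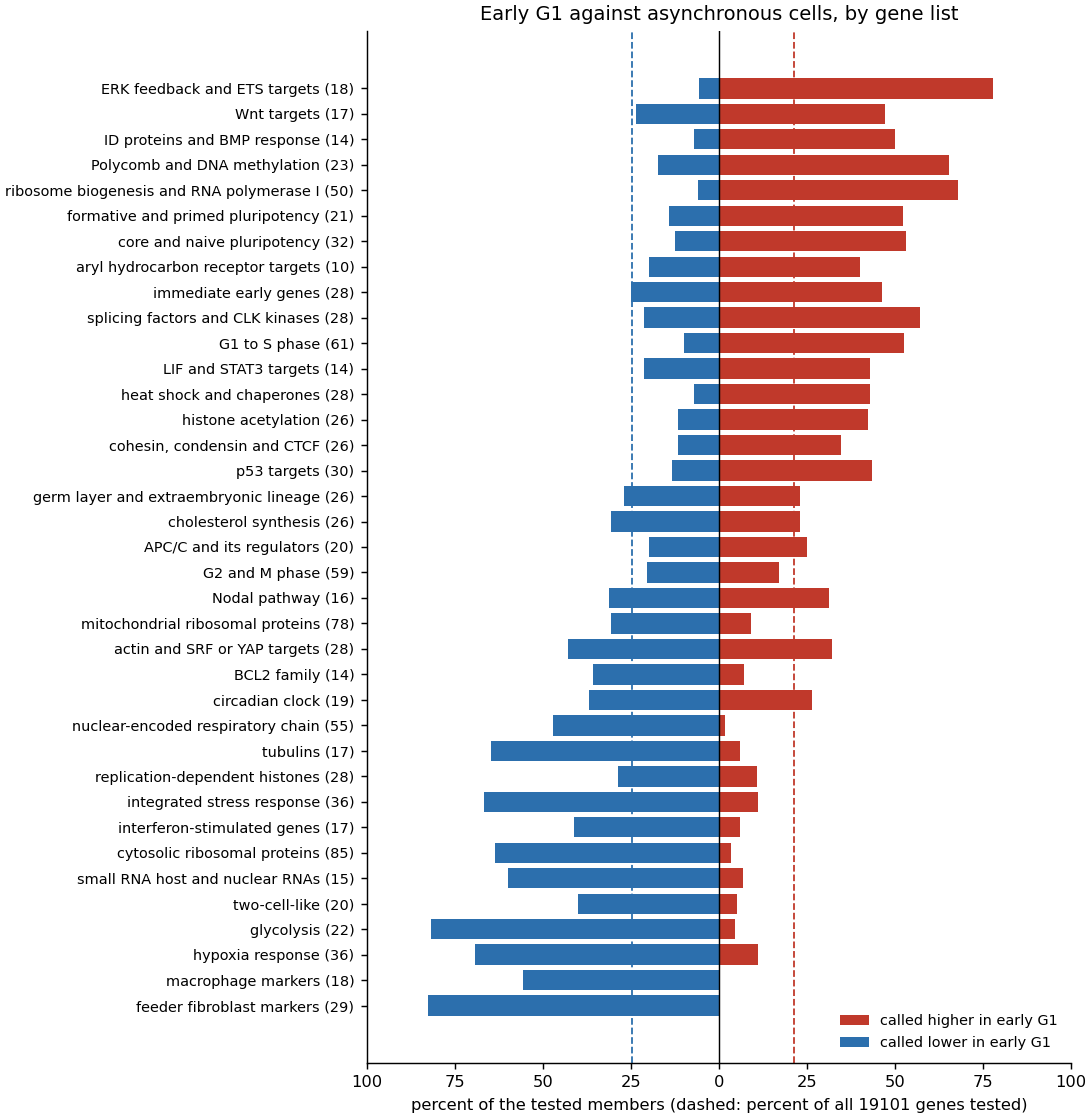
Percent of the tested members of each of 37 gene lists called higher (red, right) or lower (blue, left) in early G1 than in asynchronous cells, sorted by the median log2 fold change; the number tested is in brackets and dashed lines mark the 21.3% and 24.7% of all genes. ERK feedback and ETS targets (77.8%) and ribosome biogenesis (68.0%) reach furthest to the right, and fibroblast markers (82.8%) and glycolysis (81.8%) furthest to the left.

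Genes on the X chromosome were called higher in 29.5% and lower in 11.1% of 745 tested, against 21.3% and 24.7% of all genes. The other chromosomes varied too. The shares were 26.8% and 17.8% of 456 on chromosome 18, 16.6% and 32.5% of 1486 on chromosome 11 and 17.8% and 31.5% of 1531 on chromosome 7. No test was made of these shares.

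The values at 3 h are given beside those at 1 h as a description, since both are taken against the same asynchronous libraries and the genes were chosen by their call at 1 h. The 4064 genes called higher in early G1 had a median of 0.97 at 1 h and of 0.99 at 3 h, and the 4720 called lower of -1.23 and -1.25. Among those described above, Egr1, Foxd3, Id3 and Rps7 stood nearer to the asynchronous level in late than in early G1. Ccne2, E2f8, Plk2 and Klf2 stood further from it.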

How the data were processed

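Messenger RNA of 8 libraries was sequenced as single reads of 50 bases from a stranded poly(A) kit, per the labels' protocols. The authors deposited 1 table of raw read counts per gene, 54838 genes in all, of which 20402 had 0 counts in every library. Per the submitters' processing notes, TopHat2, SAMtools and HTSeq were used with mm10. The sources used here give neither the strand setting of the counting nor the annotation release. Symbols came from GENCODE M21 (GRCm38) for 54809 genes (99.9%), and the table held 0 counts on mitochondrial genes.

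Counts were fitted with edgeR 4.0.16 in R 4.3.3: genes kept by filterByExpr with a minimum count of 10, TMM scaling and the robust quasi-likelihood test over all 8 libraries, with 4 residual degrees of freedom and Benjamini-Hochberg adjustment at 0.05 over 19101 genes. Alternatives were DESeq2 1.42.0, RLE scaling, no filter, the 4 libraries alone, a replicate block, a term for replicate 1 of the asynchronous and mitotic states, and leaving out each library. On counts simulated for this comparison with 18529 genes, the test called 45 of 99 genes changed 2-fold and 76 of 97 changed 4-fold, with 4 false calls. The simulation gave all libraries the same spread at a given level and changed few genes. The real states differed in spread (coefficients of 0.0417 to 0.292), so these counts do not give the error rates of this comparison.

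The members and all 37 gene lists were chosen with earlier results of these data known. Named genes were called genes with separated groups: the 12 largest rises and falls at an average log2 CPM of at least 2 (also without fibroblast markers), 8 in each of 4 classes set by the mitotic level, the 4 with the smallest p per list and direction, and a panel of 10 whatever their call (Pou5f1, Sox2, Nanog, Esrrb, Klf4, Myc, Ccnb1, Plk1, Ccne1 and Fbxo5). List members named for their class, such as Cdk1, and the genes whose promoters are printed, Cyp1a1, Ldha and Bnip3, were chosen after their values were seen.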

Additional observations from a re-analysis of the deposited data

How the results depend on the processing

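Limits: with 2 libraries a state and 4 residual degrees of freedom, changes of 2-fold are often missed, and differences of genes near the floor of 3 counts rest on few reads. The numbers of genes called higher and lower, and of those at least 2-fold higher and lower, were 4024, 4348, 1828 and 2672 with DESeq2, 4150, 4657, 1980 and 2939 with RLE size factors, and 4802, 5044, 2405 and 3239 without the filter. With the 4 libraries alone they were 2391, 3235, 1467 and 2520, and with a term for replicate 1 of the asynchronous and mitotic states 5767, 5958, 2736 and 3366. Leaving out 1 library at a time gave ranges of 1948 (without early G1 replicate 2) to 5579 (without asynchronous replicate 1), 2238 to 5658, 1282 to 2982 and 1888 to 3471, with the same libraries at each end. Without replicate 1 of both the asynchronous and mitotic states, an alternative added after seeing the data, they were 6655, 6862, 3213 and 3728. The cause was not tested. Whether the replicate numbers pair the samples is not known, and they were not used as a pairing in the main fit. Deviations from asynchronous libraries of the same number correlated at -0.430 for early G1 and 0.636 for mitotic libraries. A replicate block gave 4219, 4702, 2036 and 2931. A block with the early G1 numbers crossed, added after seeing the data, gave 4525, 5016, 2081 and 2976. Pou5f1, not called at 0.07, reversed to -0.15 (adjusted p = 0.0304, edgeR) without replicate 1 of both states and stood at 0.33 without asynchronous replicate 2; the cause was not tested. Of 324 named genes that were called, 229 were called under every alternative run and 95 lost the call under at least 1.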
